A study of Bos taurus with 12 samples.

Results

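The bovine miR-15/16 family and the miR-103 and miR-107 pair were listed in 10 rows of a table of 783 known miRNAs, and 8 of them had a read in at least 2 of 12 plasma extracellular vesicle (EV) libraries. The members were chosen by name as miRNAs whose 5′ ends share the letters AGCAGC, and not by their values: bta-miR-15a, bta-miR-15b, bta-miR-16a, bta-miR-16b, bta-miR-195, bta-miR-497, bta-miR-424-5p, bta-miR-503, bta-miR-103 and bta-miR-107. For comparison, 273 of the 783 miRNAs had a read in at least 2 libraries.

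The libraries came from Day 7 blood plasma of 6 crossbred beef heifers, whose ovarian response to superstimulation was high (H) in 3 and low (L) in 3, in an unstimulated (U) and the following superstimulated (S) estrous cycle. This gave 3 libraries in each of 4 groups: UL (unstimulated, low response), UH (unstimulated, high), SL (superstimulated, low) and SH (superstimulated, high). All heifers had been synchronized. In the S cycle they also received follicle-stimulating hormone with prostaglandin and were then inseminated, so hormone treatment, insemination and cycle order cannot be told apart in a comparison of S with U. Response was judged by the number of corpora lutea after superstimulation, and H and L heifers were picked from the ends of a larger set, so a U library carries a label that was given later. Libraries of both cycles with the same number were taken to be from the same heifer. EVs are membrane-enclosed particles that many cell types release into blood, and a lower read number in plasma EVs cannot tell fewer vesicles of a source from less miRNA per vesicle.

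MicroRNAs guide a silencing complex to messenger RNAs that pair with their seed, the bases from the second to the eighth. The miR-15/16 family is best known as a brake on the cell cycle and on survival, through targets such as cyclins and BCL2, and it is found in nearly all tissues and in blood cells. The pair of miR-103 and miR-107 lies in introns of pantothenate kinase genes and is known for targeting the miRNA-processing enzyme Dicer and for effects on insulin sensitivity.

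The mature sequences show why the members were read together and which pairs can hardly be separated. They are given 5′ to 3′ as the deposited table spells them, in DNA letters, with the seed in capitals.
bta-miR-15a: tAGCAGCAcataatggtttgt
bta-miR-15b: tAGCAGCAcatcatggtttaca
bta-miR-16a: tAGCAGCAcgtaaatattggtg
bta-miR-16b: tAGCAGCAcgtaaatattggc
bta-miR-195: tAGCAGCAcagaaatattggca
bta-miR-497: cAGCAGCAcactgtggtttgta
bta-miR-424-5p: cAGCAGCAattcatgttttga
bta-miR-503: tAGCAGCGggaacagtactg
bta-miR-103: aGCAGCATtgtacagggctatga
bta-miR-107: aGCAGCATtgtacagggctatc

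The letters AGCAGC stood within the first 8 bases of all 10 members, from base 2 in the miR-15/16 members and from base 1 in bta-miR-103 and bta-miR-107. The seeds were therefore not the same. AGCAGCA was shared by 7 members, bta-miR-503 had AGCAGCG, and bta-miR-103 and bta-miR-107 had GCAGCAT. Among all 783 miRNAs of the table, 13 (1.66%) held AGCAGC in this window on the strand of the mature miRNA, and the other 3, bta-miR-562, bta-miR-2334 and bta-miR-6519, had 0 reads in every library. With positions counted from 1 at the 5′ end and the first-named miRNA's base given first, bta-miR-16a and bta-miR-16b were identical over their first 20 bases and differed by T21C. Likewise, bta-miR-103 and bta-miR-107 were identical over their first 21 bases and differed by G22C. A read trimmed before that base could belong to either, so how reads were split within these pairs is uncertain. Apart from these pairs, no miRNA of the table shared its first 18 bases with a member. The more divergent bta-miR-15a and bta-miR-15b differed by A12C, G20A and T21C.

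All 11 member genes were found in RefSeq (ARS-UCD2.0), where most lie side by side. MIR15A neighbours MIR16A, MIR15B neighbours MIR16B inside SMC4, a condensin gene, MIR195 neighbours MIR497, and MIR424 neighbours MIR503. MIR103 has 2 copies, in the pantothenate kinase genes PANK3 and PANK2, and MIR107 lies in PANK1. Because mature bta-miR-103 comes from either copy, its reads do not say which one was transcribed.

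Known miRNA reads ranged from 21466 in SH2 to 77433 in SH3, so 3 reads were worth 6.03 normalized reads in SH2 and 1.81 in SH3. Normalized reads are reads scaled to the same depth by the trimmed mean of M-values (TMM). The mature members are 20 to 23 bases long, and their levels were compared without dividing by length. Markers of red cells (3 miRNAs, summed), platelets (5) and leukocytes (5) each had reads in the EV libraries. The platelet sum ranged from 2968 normalized reads to 12421 in UH2, the leukocyte sum from 1186 to 2650 and a liver sum (2 miRNAs) from 89.6 to 716. The platelet list held bta-miR-126-3p, bta-miR-126-5p and bta-miR-223 among others. In the study's averages, bta-miR-126-3p was far above bta-miR-223 in all 4 groups. The part of platelets in this sum was not tested. The red cell sum was 8362 normalized reads in SH3 and 982 to 2756 in the other libraries. In SH3 it was nearly all bta-miR-486 (8318), with 43.4 for bta-miR-451 and 0.60 for bta-miR-144. The latter 2 were higher in UL1, at 45.2 and 7.37. The muscle sum (4 miRNAs) was 1706 in UL1 and 37.7 to 163 elsewhere. Of 4 granulosa and luteal markers, bta-miR-202, bta-miR-383 and bta-miR-212 were at 0 in every library. The ratio of bta-miR-451 to bta-miR-23a, a usual sign of red cell lysis, ranged from 0.085 in UH2 to 0.64 in SH1 and was 0.46 in SH3.

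Reads of the members were carried by 3 miRNAs. Over all libraries, bta-miR-16b had 8713 reads, bta-miR-16a 4370 and bta-miR-103 1962. By mean normalized reads they ranked 10, 24 and 35 among the 783 miRNAs. The next 4 were far lower, from 248 reads of bta-miR-15b through bta-miR-107 and bta-miR-195 down to 100 of bta-miR-15a, at ranks 87, 98, 108 and 118. Lowest among those kept was bta-miR-497, with 34 reads in 7 libraries and rank 156. A single read of bta-miR-424-5p was found, in UL2, and bta-miR-503, listed as its 5p arm, had 0 reads in all 12 libraries. A count of 0 allowed between 38.7 (SH3) and 139.8 (SH2) tags per 1000000 known miRNA reads, the share of 3 reads.

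The upper part of this order held in each library. Levels of bta-miR-16b exceeded those of bta-miR-16a, bta-miR-16a those of bta-miR-103 and bta-miR-103 those of bta-miR-15b in 12 of 12 libraries. Below that the neighbours crossed. Although the mean of bta-miR-15b was 17.1 normalized reads and that of bta-miR-107 was 12.4, bta-miR-15b was the higher in 5 libraries and equal in 1. Levels of bta-miR-107 exceeded bta-miR-195 in 8, bta-miR-195 exceeded bta-miR-15a in 7 and bta-miR-15a exceeded bta-miR-497 in 10 of 12 libraries.

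**Figure D1:**
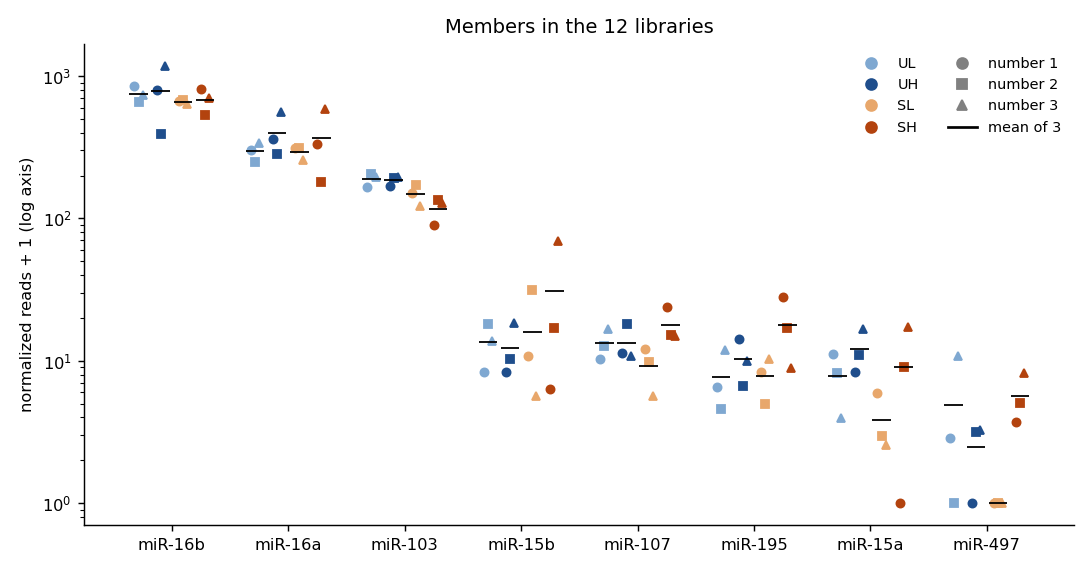
Normalized reads plus 1 (log axis) of the 8 members kept, in UL, UH, SL and SH from left to right within each miRNA. Each point is 1 library, its shape gives the library number and black lines are means of 3 libraries. bta-miR-16b, bta-miR-16a and bta-miR-103 sit above all others, and bta-miR-497 is at 0 in the 3 SL libraries.

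Within each library, the 8 members together were a small part of known miRNA reads. The miR-15/16 members made up from 1.32% in UH2 to 4.53% in UH3, with a median of 2.46%. bta-miR-103 and bta-miR-107 together made up from 0.215% in SH1 to 0.522% in UH3, with a median of 0.405%. Both extremes of the miR-15/16 share were thus in UH, and bta-miR-16a and bta-miR-16b together held 73.9% to 88.6% of all member reads. By group, the miR-15/16 share averaged 2.60% ± 0.58 in UL and 2.84% ± 1.61 in UH, with 2.30% ± 0.28 in SL and 2.33% ± 0.61 in SH (SD, n = 3), and these ranges overlapped. That of bta-miR-103 with bta-miR-107 averaged 0.477% ± 0.033 in UL and 0.441% ± 0.071 in UH, with 0.367% ± 0.080 in SL and 0.285% ± 0.064 in SH.

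The spread between heifers differed greatly among members. The pooled SD of log2 levels within groups was 0.22 for bta-miR-103, compared with a median of 0.73 over 238 miRNAs tested. For miRNAs averaging 100 reads or more the median was 0.48, and bta-miR-103 had the lowest value of those 44. The others were 0.44 for bta-miR-16b and bta-miR-107, 0.51 for bta-miR-16a, 0.66 for bta-miR-195, 1.03 for bta-miR-497, 1.14 for bta-miR-15b and 1.22 for bta-miR-15a. The last 3 had 34, 248 and 100 reads in all.

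bta-miR-16b, the most abundant member, had 850, 654 and 739 normalized reads in UL and 799, 389 and 1179 in UH, with 663, 675 and 631 in SL and 807, 530 and 700.0 in SH. The 4 groups overlapped, and both the lowest and the highest library were UH. bta-miR-16a had 302, 247 and 339 in UL and 358, 281 and 556 in UH, with 309, 313 and 258 in SL and 334, 179 and 586 in SH. UH3 and SH3, taken to be the same heifer, were the highest, and SH2 was the lowest. In all 6 comparisons the log2 differences of bta-miR-16b lay between -0.05 and 0.18 and those of bta-miR-16a between -0.22 and 0.38, none called.

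Within the miR-16 pair, bta-miR-16b held 67.9% to 74.8% of reads in 10 libraries. It held 58.1% in UH2 (exact 95% interval 54.8% to 61.2%) and 54.5% in SH3 (52.3% to 56.6%). In both libraries the interval lay below every value of the other 10. These had the most known miRNA reads, 74057 and 77433. Depth and the split of reads between 2 near-identical miRNAs were not tested as a part of this. Such intervals cover counting error only.

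bta-miR-15a, which is transcribed with bta-miR-16a, had 10.1, 7.22 and 2.96 normalized reads in UL and 7.34, 9.96 and 15.8 in UH, with 4.91, 1.97 and 1.55 in SL and 0, 8.04 and 16.3 in SH. SL was low in all 3 libraries, but SH ran from no read to the highest value of all. bta-miR-15b had 7.37, 17.2 and 12.8 in UL and 7.34, 9.25 and 17.3 in UH, with 9.82, 30.5 and 4.64 in SL and 5.37, 16.1 and 68.1 in SH. The value in SH3 came from 113 reads, while each of the other 11 libraries had at most 31. SH3 was also the library with the largest red cell sum, which was nearly all bta-miR-486. The part of red cells in this value of bta-miR-15b was not tested.

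bta-miR-195, a miR-15/16 member transcribed beside bta-miR-497, had 5.53, 3.61 and 10.9 normalized reads in UL and 13.2, 5.69 and 9.02 in UH, with 7.37, 3.94 and 9.27 in SL and 26.9, 16.1 and 7.83 in SH. SH1 and SH2 were above all others and SH3 was within the range of SL. The log2 difference between SH and SL was 1.10 (standard error 0.68, adjusted p = 0.666 from limma), so it did not pass.

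Between H and L heifers before superstimulation (UH vs. UL), a comparison that asks whether EV miRNAs differ ahead of treatment, no member was called. A miRNA was called where its log2 difference was at least 1 in size at an unadjusted p of at most 0.05, the study's threshold. With this rule 6 of 227 miRNAs (2.64%) were called, and no adjusted p was under 0.05 here or in any other comparison. Log2 differences of the 8 members ranged from -0.53 for bta-miR-497 to 0.69 for bta-miR-15a, with a median of -0.01 against 0.04 over all miRNAs. Adjusted p from limma ran from 0.929 to 0.998. In this comparison and in the UH vs. SH and UL vs. SL ones that follow, 0 of 8 members had an unadjusted p of at most 0.05 with limma or with limma-voom weights. No member had groups that did not overlap, while 17 miRNAs (7.49%) did. With 3 libraries against 3, an exact permutation test on 1 miRNA could not go below p = 0.1.

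Among superstimulated heifers (SH vs. SL), which asks the same of H and L after treatment, bta-miR-497 was called and the other 7 members were not, against 11 of 201 miRNAs (5.47%) called. It had 2, 2 and 12 reads in SH and 0, 0 and 0 in SL. All SH libraries were thus above all SL libraries, at 2.69, 4.02 and 7.23 normalized reads. Measured against 3 reads per SL library, its mean in SH of 4.64 ± 2.34 normalized reads (SD, n = 3) was at least 1.24-fold higher. This bound rested on SH3, without which the mean of 3.35 was below the 3.76 that 3 reads are worth in SL. The fitted log2 difference was 2.42 (standard error 0.66, adjusted p = 0.434 from limma), but with SL at 0 its size depends on the pseudocount. It was called in each of the 16 alternatives in which it was tested, where it ranged from 1.67 to 3.27. However, bta-miR-497 passed the filter only through SH, the group where it was higher. Leaving out an SL library, each at 0 reads, could not move the value from 2.42. When at least 10 reads on average were required, bta-miR-497 was not tested. The study, which used edgeR on the same libraries, also called it higher in SH, so its call is not independent of this one.

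bta-miR-107 was also higher in all 3 SH libraries than in SL. It had 22.8, 14.1 and 13.9 normalized reads in SH and 11.1, 8.87 and 4.64 in SL. Its log2 difference was just under the size threshold, at 0.997 (standard error 0.616, adjusted p = 0.666 from limma). With an unadjusted p of 0.135 from limma, it did not meet the p threshold either. After TMM scaling these were the 2 members whose groups did not overlap, compared with 18 of 201 miRNAs (8.96%). With mapped reads as library size, the groups of bta-miR-107 did overlap and those of bta-miR-195 did not. Of the 8 members, 7 were on the higher side in SH (6 with total reads as library size, where bta-miR-16b was at -0.12), with a median log2 difference of 0.63 against -0.08 over all miRNAs. The exception was bta-miR-103 at -0.35 (standard error 0.35, adjusted p = 0.739 from limma). Without SH3, 4 of the 7 turned: bta-miR-15a, bta-miR-15b and bta-miR-16a to -0.24, -0.25 and -0.26, and bta-miR-16b to -0.0035.

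The share of bta-miR-107 within its pair separated SH from all other libraries. It was 20.5%, 9.59% and 9.87% of the reads of bta-miR-103 plus bta-miR-107 in SH, and 3.70% to 8.16% in the other 9. SH1 had 17 of 83 reads, an exact 95% interval of 12.4% to 30.8%, above the other 9 values. For SH2 (3.94% to 18.8%) and SH3 (6.36% to 14.4%) the intervals reached into the range of the other groups. As shares within a library, these do not depend on scaling. The pair is told apart by its last bases only. The pattern was noticed after the values were seen, and no test was made.

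**Figure D2:**
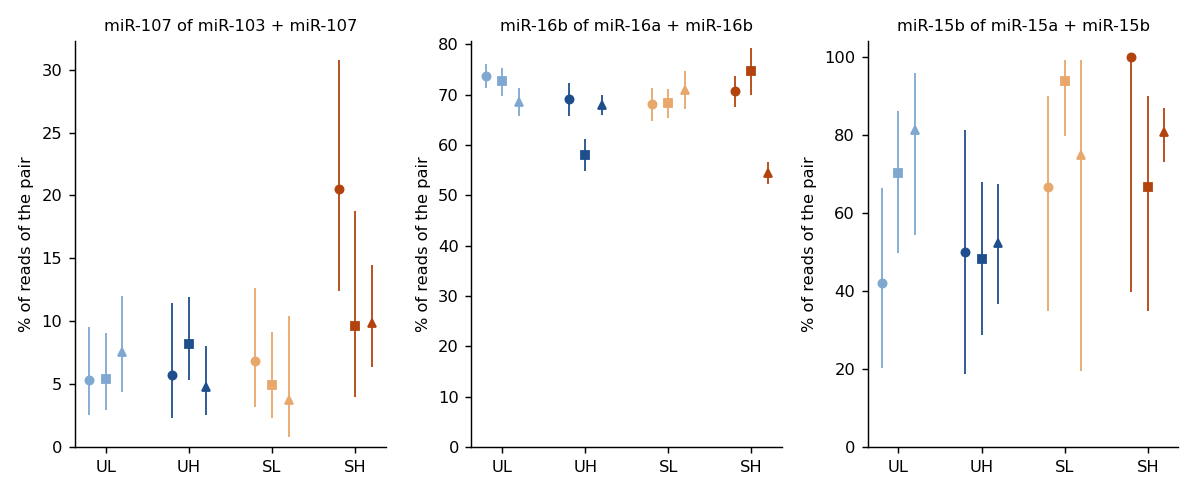
Share of 1 member in the reads of a near pair, in percent, for each library, with exact 95% binomial intervals as bars. The bta-miR-107 share is 9.59% to 20.5% in SH and at most 8.16% elsewhere, and the bta-miR-16b share is lowest in SH3 and UH2. Point shapes give the library number.

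In H heifers between cycles (UH vs. SH), the comparison that asks what changed with superstimulation in good responders, no member was called, against 12 of 212 miRNAs (5.66%). bta-miR-103 had 169, 192 and 195.5 normalized reads in UH and 88.6, 133 and 127 in SH. Every UH library was thus above every SH library, with a log2 difference of 0.69 (standard error 0.42, adjusted p = 0.736 from limma). bta-miR-497 lay the other way, at 0, 2.13 and 2.26 in UH, with a log2 difference of -1.30 (standard error 0.85, adjusted p = 0.736 from limma). Those 2 members did not overlap, compared with 16 miRNAs (7.55%). For bta-miR-497 this rested on 0, 3 and 3 reads in UH against 2, 2 and 12 in SH, which overlap before scaling, and the groups also overlapped with total or mapped reads as library size. For bta-miR-103 they overlapped with mapped reads as library size, while those of bta-miR-195 did not overlap with that scaling. The SH libraries are the same as in the comparison with SL, so both results rest on them. Among the members, the difference next in size to that of bta-miR-497 was that of bta-miR-15a, 1.10 (standard error 0.98). SH1 with 0 reads decided it: without SH1 the value was -0.11.

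In L heifers (UL vs. SL) no member was called either, against 5 of 214 miRNAs (2.34%), and none had groups without overlap, against 17 (7.94%). UL held 2, 0 and 10 reads of bta-miR-497 against none in SL. Its mean in UL of 3.91 ± 5.25 normalized reads (SD, n = 3) was carried by UL3 and, at 0.92 without UL3, was below the 3.76 that 3 reads per SL library are worth, so no fold is given. The log2 difference was 1.65 (standard error 0.81, adjusted p = 0.702 from limma). The study, which used edgeR, called bta-miR-497 higher in UL at the same threshold, so its result differs from the one here. With limma it was called without UL2, at 2.48, and in none of the other 13 alternatives in which it was tested. UL2 was the UL library with 0 reads, so leaving it out could only raise the value. However, bta-miR-497 passed the filter only through UL, the group where it was higher. Leaving out an SL library, each at 0 reads, could not move the value from 1.65. Without UL1, without UL3 or with a mean of at least 10 reads it was not tested. bta-miR-103 had 165, 205 and 194 normalized reads in UL and 150, 170 and 121 in SL, with a log2 difference of 0.36 (standard error 0.22, adjusted p = 0.702 from limma). SL2 was above UL1, so these groups overlapped after TMM scaling. They did not overlap with the other 3 scalings.

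**Figure D3:**
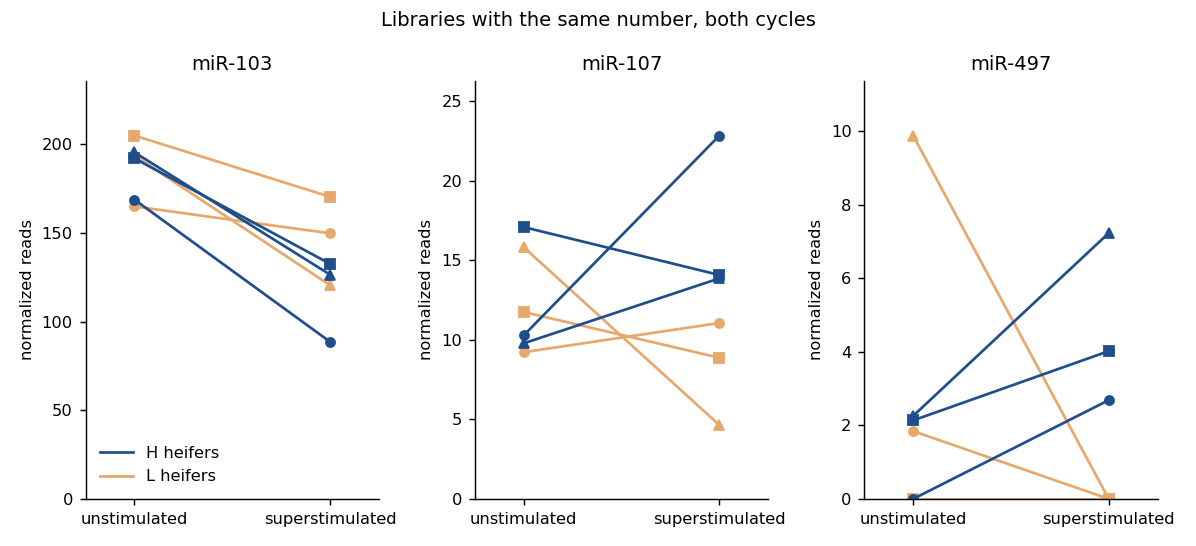
Normalized reads of bta-miR-103, bta-miR-107 and bta-miR-497 in the unstimulated and the superstimulated cycle, with a line joining libraries that carry the same number. bta-miR-103 is lower in S along all 6 lines. bta-miR-497 is higher in S in the 3 H heifers, and in the 3 L heifers it is lower in S or at 0 in both cycles.

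Averaged over H and L, levels in U and S were compared for all 6 heifers, and 11 of 238 miRNAs (4.62%) and no member were called. bta-miR-103 had a log2 difference of 0.53 (standard error 0.21, adjusted p = 0.540 from limma), under the size threshold. It was higher in U in 6 of 6 heifers, which held for 5 of 238 miRNAs (2.1%), while 0 were lower in U in all 6. The same 6 of 6 was found with each of the other 3 scalings. Its unadjusted p was at most 0.05 in 18 of 22 alternatives, with a log2 difference of 0.44 to 0.60. With mapped reads as library size it was above 0.05. Group means were 188 ± 20.6 in UL and 185 ± 14.5 in UH, with 147 ± 25.1 in SL and 116 ± 23.8 in SH (SD, n = 3).

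The partner bta-miR-107 did not follow. With 3 heifers higher and 3 lower in U, its log2 difference was 0.07 (standard error 0.40, adjusted p = 0.953 from limma). bta-miR-15a was higher in U in 5 of 6 heifers, with a log2 difference of 1.05 (standard error 0.65, adjusted p = 0.716 from limma), and was called only without SH3, at 1.47. In U and S, bta-miR-16a and bta-miR-16b differed by 0.11 (standard error 0.27) and 0.14 (standard error 0.25), each with 3 heifers higher and 3 lower after TMM scaling. Over the 8 members the median was 0.13, equal to the median of 0.13 over all miRNAs.

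Whether H and L heifers changed differently between cycles was tested by an interaction term, SH minus UH less SL minus UL. bta-miR-497 was called, against 12 of 238 miRNAs (5.04%). Its reads went from 0, 3 and 3 to 2, 2 and 12 in H heifers and from 2, 0 and 10 to 0, 0 and 0 in L heifers. On the normalized scale it was higher in S in 3 of 3 H heifers, and lower in S in 2 of 3 L heifers with the other at 0 in both cycles. The log2 difference was 2.95 (standard error 1.17, adjusted p = 0.847 from limma). It was not called without UL3 (2.05) or without UH1 (2.39), with unadjusted p above 0.05 in both. In the fit with the replicate block, it was 2.95 (standard error 1.10) and still called.

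For the other 7 members this difference was not called. It was 0.995 (standard error 0.79, adjusted p = 0.847 from limma) for bta-miR-107 and -0.33 (standard error 0.42, adjusted p = 0.965 from limma) for bta-miR-103, so the difference of bta-miR-103 between U and S was not shown to differ between H and L. All 4 groups enter this test, and it is not independent of the pairwise comparisons above. bta-miR-195, the neighbour of bta-miR-497, had 0.63 (standard error 0.95).

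**Figure D4:**
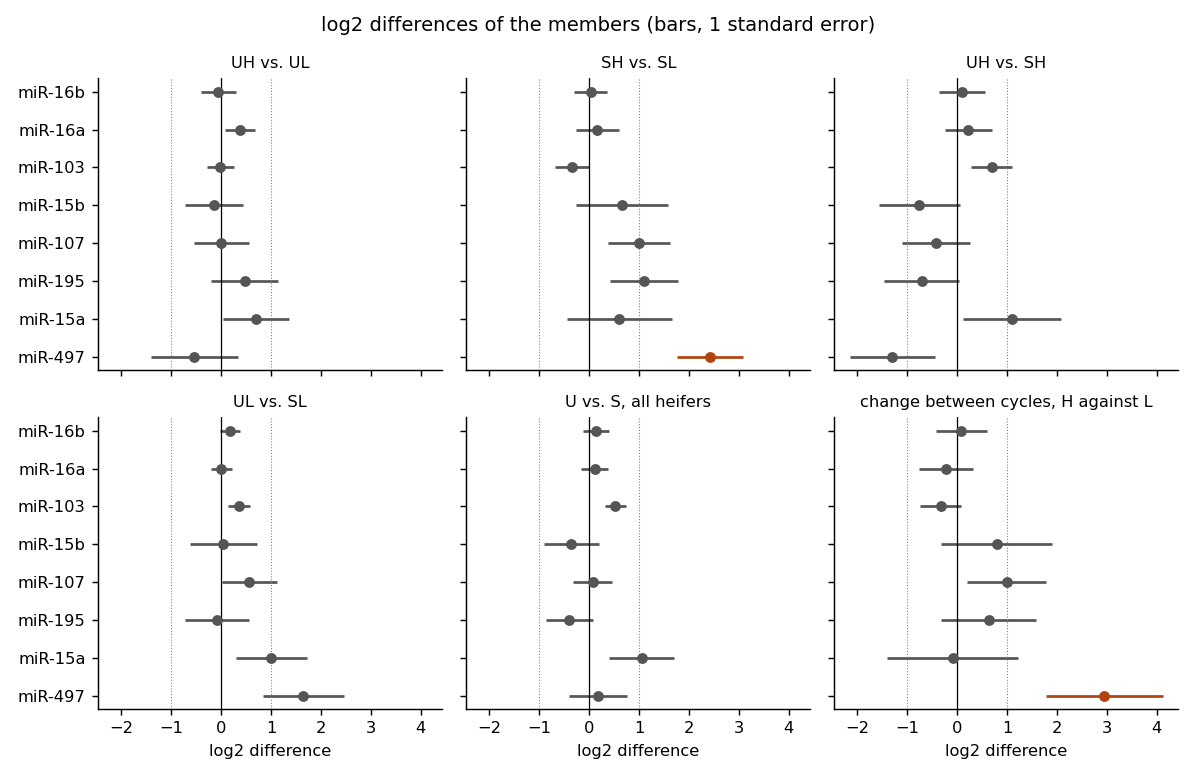
Log2 differences of the 8 members in the 6 comparisons, the first-named group minus the second, with bars of 1 standard error from limma. Dotted lines mark a log2 difference of 1 in either direction, and the 2 coloured points, both bta-miR-497, were called.

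Other products of the same genes and clusters gave few reads. The 3p arm bta-miR-503-3p had 9 reads in 4 libraries (4 in UL1, 1 in SL2, 1 in SL3 and 3 in SH1), although its 5p arm had 0. bta-miR-424-3p had 0 reads, and bta-miR-542-5p, bta-miR-450b and bta-miR-450a, which are encoded near MIR424 and MIR503, had 6, 4 and 1. None of these rows was above 4 reads in a library, too few for a level.

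Across the 12 libraries, the summed miR-15/16 members were most like bta-miR-30c among 102 miRNAs ranked, with Pearson's r = 0.90 and Spearman's rho = 0.81. All of these correlations were taken on log2(normalized reads + 1). bta-miR-185 followed at 0.78 and bta-miR-140 at 0.66. This order rested on UH2 and UH3, the libraries farthest from the median. Without them bta-miR-140 came to 0.85, above bta-miR-30c at 0.83. For the sum of bta-miR-103 and bta-miR-107 the nearest was bta-miR-375 (r = 0.85, rho = 0.87), then bta-miR-30a-5p and bta-miR-23b-3p, both at 0.77. Here too the order changed without the farthest libraries, SH1 and SL3, with bta-miR-23b-3p at 0.79 and bta-miR-375 at 0.76. These values are a description, since the libraries share groups, heifers and the same scaling.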

How the data were processed

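Total RNA of EVs from the blood plasma of 12 Day 7 samples (exoRNeasy kit) was made into small RNA libraries with molecular tags (QIAseq). The authors removed adapters (Cutadapt), collapsed reads by tag, mapped them to UMD3.1 with Bowtie2 2.2.2, and annotated perfect matches against miRBase. The authors used edgeR for their own comparisons. The deposited table holds whole-number scores for each miRNA and library, read here as tags per 1000000 mapped reads. All values were whole multiples of a library step (4.48 to 7.93) with the decimals dropped, and reads were calculated back without ambiguity. The deposited scores are not raw counts, and no count model such as that of edgeR was run on the reads calculated back. These reads did enter an alternative fit with limma-voom weights and the exact intervals of shares.

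Reads were scaled by TMM (trims of 30% and 5%) and tested as log2(normalized reads + 1) with limma 3.58.1 in R 4.3.3 (eBayes with trend, two-sided, Benjamini-Hochberg over all miRNAs tested). A fold change on this scale understates that of miRNAs with few reads. A miRNA was tested with a read in at least 2 libraries of a group compared. Pairwise comparisons used their 6 libraries, and the others all 12. Groups came from the labels, and p-values measure the spread between 3 heifers a group. The main fits did not use the pairing of U and S libraries by heifer, which entered only in the alternative with the replicate block. Known miRNA reads per library were 21466 to 77433. Libraries of a group differed by more than sampling noise and were counted separately. The method was tested on simulated data. Alternatives changed scaling, filter, pseudocount, model, pairing and each library.

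A shared number was taken as the same heifer, since the study sampled the same heifers in both cycles. Deviations from group means over 238 miRNAs correlated at 0.10, 0.06 and -0.05 (UL with SL) and at 0.05, 0.21 and 0.13 (UH with SH). All 10 members were named, with related miRNAs by seed or cluster. Members and lists were chosen with earlier results of these data known. Sequences and names came from the deposited table, and gene neighbours from RefSeq (ARS-UCD2.0), whose coordinates are not given because the builds differ.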

Additional observations from a re-analysis of the deposited data

Results flagged for a closer look

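The change of bta-miR-497 between cycles differed between H and L heifers by a log2 difference of 2.95 (adjusted p = 0.847 from limma), tested with an interaction term. It rests on 34 reads in all, at most 12 in a library, and it lost its call without UL3 or without UH1.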

How the results depend on the processing

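Under 112 alternatives, the number of members called was the same in 106. It changed from 1 to 0 in SH vs. SL and in the change between cycles with a mean of at least 10 reads, which leaves bta-miR-497 untested and 5 members in each fit. Leaving out 1 library gave 0 to 1 members called in UL vs. SL (1 without UL2), in U vs. S (1 without SH3) and in the change between cycles (0 without UL3 or UH1). The fit with the replicate block changed no member's call. It pairs libraries of the same heifer between U and S only. In UH vs. UL and SH vs. SL the libraries share a number but come from different heifers, so the block is no pairing there. The block gave 2.95 for bta-miR-497 in the change between cycles. Leaving out libraries for the fold of bta-miR-497 against 0 reads, and looking at overlap under each scaling, were chosen after seeing the data.

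Of 879 values of single members, 60 changed sign, and none of these was called in either setting. The cause was not tested. With mapped reads as library size, bta-miR-15b, bta-miR-16b and bta-miR-103 had 0.022, 0.11 and 0.15 in UH vs. UL, where that scaling moves the median of all miRNAs by 0.13 (0.15 in SH vs. SL). With total reads as library size, which moves the median by -0.14 in SH vs. SL, bta-miR-16b had -0.12 there and bta-miR-107 -0.10 in UH vs. UL. With median-of-ratios factors, bta-miR-107 had -0.017 in UH vs. UL and bta-miR-16a -0.015 in UL vs. SL. With limma-voom weights, bta-miR-15b had -0.13 in UL vs. SL, and bta-miR-15a 0.059 in the change between cycles, where a pseudocount of 2 gave 0.025.

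Leaving out each library in turn, values in UH vs. UL ran from -0.47 to 0.11 for bta-miR-15b, -0.41 to 0.38 for bta-miR-16b, -1.36 to 0.36 for bta-miR-497, -0.11 to 0.050 for bta-miR-103 and -0.24 to 0.19 for bta-miR-107. In SH vs. SL they ran from -0.24 to 1.82 for bta-miR-15a, -0.25 to 1.47 for bta-miR-15b, -0.26 to 0.60 for bta-miR-16a and -0.11 to 0.20 for bta-miR-16b. In UH vs. SH they ran from -0.11 to 1.94 for bta-miR-15a, -1.56 to 0.15 for bta-miR-15b, -0.21 to 0.64 for bta-miR-16a and -0.26 to 0.54 for bta-miR-16b. In UL vs. SL they ran from -0.53 to 0.71 for bta-miR-15b, -0.10 to 0.13 for bta-miR-16a and -0.45 to 0.23 for bta-miR-195. In U vs. S they ran from -0.76 to 0.10 for bta-miR-15b, -0.10 to 0.32 for bta-miR-16a, -0.041 to 0.36 for bta-miR-16b, -0.27 to 0.59 for bta-miR-497 and -0.087 to 0.19 for bta-miR-107. For the change between cycles they ran from -0.93 to 1.12 for bta-miR-15a, -0.11 to 1.61 for bta-miR-15b, -0.64 to 0.21 for bta-miR-16a and -0.36 to 0.44 for bta-miR-16b.

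With at most 27 reads in any library, bta-miR-15a, bta-miR-195, bta-miR-107 and bta-miR-497 had standard errors of 0.40 to 1.31 on the log2 scale.

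Over all miRNAs the number called also moved. A mean of at least 10 reads gave the lowest counts, 1 in UH vs. UL, 4 in SH vs. SL, 6 in UH vs. SH, 0 in UL vs. SL, 4 in U vs. S and 4 in the change between cycles, with fewer miRNAs tested. The 6 was also found without UH2 or without SH1, and the 4 in U vs. S with a pseudocount of 2. The highest were 10 in UH vs. UL (without a filter, without UL3 or without UH2) and 15 without SL2 in UL vs. SL. Without SH2 they were 34, 24 and 21 in SH vs. SL, UH vs. SH and the change between cycles. In U vs. S the highest was 16.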
